A study of Mus musculus with 6 samples.

Results

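Mitochondrial ribosomal proteins are encoded in the nucleus, made in the cytosol and imported into mitochondria. There they build the ribosome that translates the messages of the 13 protein-coding genes of the mitochondrial genome. All 13 of these genes encode subunits of the respiratory chain and ATP synthase. The small subunit of this ribosome binds the message and reads its codons, and the large subunit joins the amino acids. Many of the proteins descend from those of the bacterial ribosome ("bacterial-type" below), and others are found in mitochondria but not in bacteria ("mitochondria-specific"). The retinal pigment epithelium (RPE) is a pigmented cell layer that serves the photoreceptors and relies strongly on mitochondrial respiration.

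The members were chosen by name: every gene of the deposited table whose symbol starts with Mrpl or Mrps and a digit, without the symbols that mark a pseudogene. Of the 33924 genes in the table, 76 met this rule, and 75 of them had a mean normalized count of at least 10, a minimum that 18479 of all genes reached. The remaining gene, Mrpl53, was listed at 0. No member lay near the minimum, the lowest being Mrps18b with 209. By symbol 46 of the 75 are Mrpl and 29 are Mrps genes. By their place in the mammalian mitochondrial ribosome 48 belong to the large and 26 to the small subunit, since Mrps30 and Mrps18a sit in the large subunit despite their letter. The gene Mrps36 stands outside both, as its product is now known as a component of the 2-oxoglutarate dehydrogenase complex.

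The study sequenced RPE/choroid, the pigment epithelium scraped from the eyecup with the vascular layer behind it, from C57BL/6J mice, 3 of them young and 3 aged, and each sample joined the 2 eyes of 1 mouse. The labels give an age of 1 to 2 months for young mice, where the study's methods give a slightly higher age. For aged mice the titles state 20 to 24 months, whereas another label states 22 to 24 months. All 6 mice are labelled as male, although the study's methods mention mice of either sex. Ribosomal RNA was removed and poly(A) RNA was selected before sequencing.

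The value of each gene was the authors' mean normalized count over the 6 libraries of both ages. No value of a single mouse was at hand, so every level below belongs to young and aged tissue together, no spread between mice could be given and no difference with age was tested here. Intervals are exact Poisson intervals at the 95% level on the reads behind 6 libraries, and they cover counting error only. They assume that the mean rests on read counts. The means of all genes sum to 40816668 per library. For each member 6 times the mean, taken as its reads over the 6 libraries, was between 1257 and 24001. Among the markers of the tissue, all 9 of the RPE list passed the minimum, with Rpe65 at 113930 and Best1 at 82 mean normalized counts. All 4 skeletal muscle markers passed as well, with Acta1 at 40522, and the photoreceptor marker Rcvrn had 8413. The levels of the members are therefore those of a mixed tissue, in which fewer cells of a type and less RNA per cell cannot be told apart.

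The median of the members was above the median of the genes that passed the minimum, but not every member was. By count it lay at percentile 67.0, and the lowest member, Mrps18b, lay at percentile 30.8. Together the members held 0.295% of all counts, with a median of 1399 mean normalized counts and quartiles at 1037 and 1949. Genes differ in length, so levels of different genes were compared per kilobase (kb), except where a gene and its pseudogene are set side by side by count. Per kb of the longest annotated transcript the median of the members was 762 mean normalized counts, at percentile 77.4 of the 17950 genes with this minimum and a transcript length, whose median was 214. Per kb of coding sequence it was 2643, at percentile 82.4 of the 15555 genes with a coding length, whose median was 530.

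The choice of length mattered for single genes. In the members the longest transcript was between 1.12 and 14.1 times as long as the coding sequence, with a median of 2.65 times. Their rank correlation (Spearman) of count with length was 0.061 for the longest transcript and -0.386 for coding sequence. Over all genes it was 0.187 and -0.015. Counts of the members thus rose little or fell with length, and the order per kb reflects the length as well as the count. By the methods the counts derive from TPM values, a measure already divided by transcript length. Whether the counts still carry that division was not tested. If they do, values per kb divide by length again, which raises short genes against long ones. The genes named as high or low below were taken per kb of the longest transcript, and this order does not hold for all of them under the other lengths. Those that kept their place per kb of the longest transcript, of the median transcript and of coding sequence are named as such. In the order by coding sequence, 45 of the 74 pairs of neighbours had overlapping counting intervals, so that many adjacent ranks cannot be told apart.

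**Figure D1:**
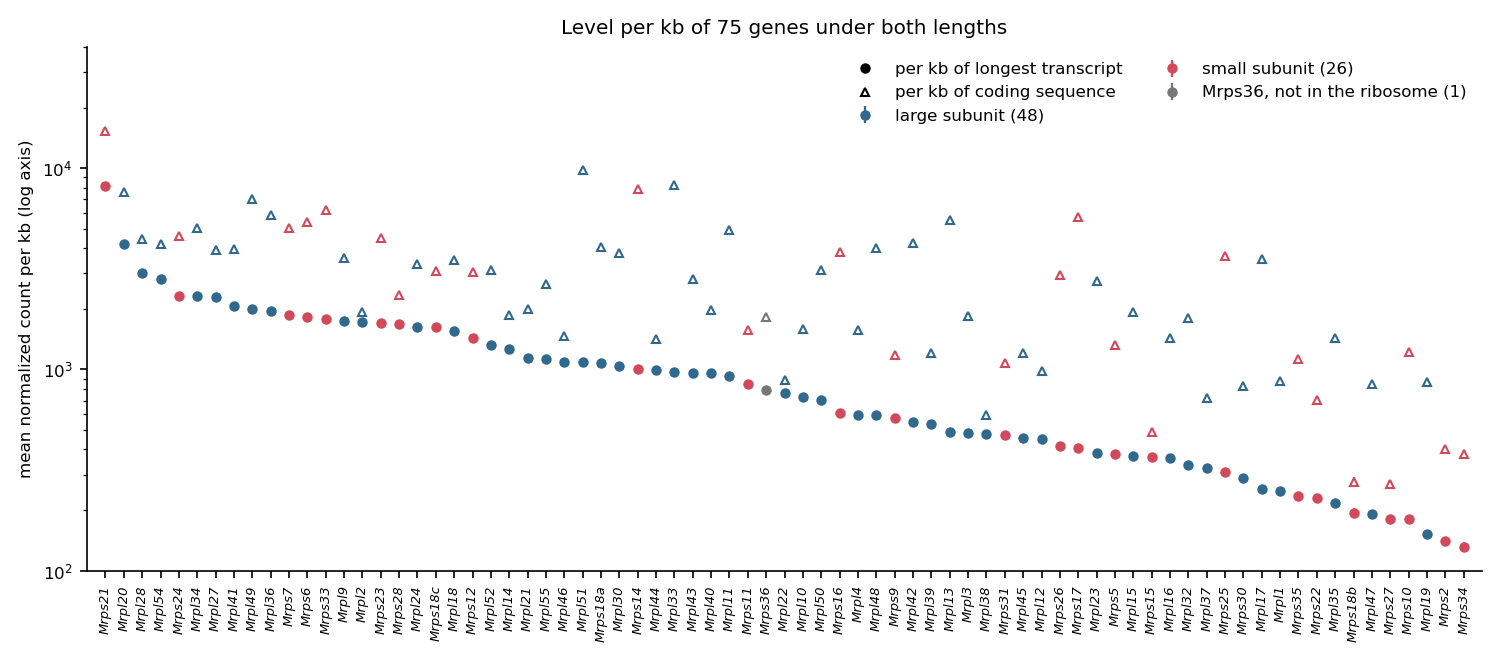
The level of each of the 75 genes is drawn as mean normalized counts per kb of the longest transcript (filled circles) and of coding sequence (open triangles) on a log axis, in the order of the circles, coloured by subunit. Bars are 95% Poisson intervals and are mostly smaller than the marks. Mrps21 is highest under both lengths, and Mrps27, Mrps18b, Mrps34, Mrps2 and Mrps15 are the 5 lowest triangles.

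In the small subunit the bacterial-type gene Mrps21 stood highest. It had 4000 mean normalized counts (3950 to 4051), the highest count of the members. This is 8197 per kb of the longest transcript and 15326 per kb of coding sequence. It ranked first of the 75 under each of the 3 lengths. Its longest transcript (488 bases) and its coding sequence (261 bases) were the shortest of the members. The gene lies at chr3:95862634-95871519 on the minus strand of GRCm38, and 91.2% of its sequence words of 50 bases occur in no other gene. Next in this subunit per kb of the longest transcript came Mrps24 with 2314, Mrps7 with 1855, Mrps6 with 1823, Mrps33 with 1785, Mrps23 with 1699, Mrps28 with 1675 and Mrps18c with 1615. Of these 7, Mrps33 and Mrps23 are mitochondria-specific and the others are bacterial-type, among them Mrps7, which lies where messenger RNA and transfer RNA meet. Only Mrps21, Mrps24, Mrps33 and Mrps23 of this subunit stayed among the 18 highest members under all 3 lengths.

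At the low end of the small subunit, Mrps34, Mrps2, Mrps10, Mrps27, Mrps18b, Mrps22, Mrps35 and Mrps25 had the lowest levels of this subunit per kb of the longest transcript, from 131 for Mrps34 to 309 for Mrps25. Per kb of coding sequence the 5 lowest of all 75 members were Mrps27 with 269, Mrps18b with 275, Mrps34 with 379, Mrps2 with 401 and Mrps15 with 490. The counting intervals of Mrps27 and Mrps18b overlapped, as did those of Mrps34 and Mrps2. Mrps2 is a bacterial-type protein, as is Mrps15, whereas Mrps27, Mrps18b and Mrps34 are mitochondria-specific. The human counterparts of Mrps2, Mrps22, Mrps25 and Mrps34 are known as genes of inherited mitochondrial disease. Mrps25 illustrates the dependence on length, since its longest transcript gave 309 per kb and its coding sequence 3653.

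In the large subunit Mrpl20 led per kb of the longest transcript with 4217, followed by Mrpl28 with 3029, Mrpl54 with 2820, Mrpl34 with 2305, Mrpl27 with 2300, Mrpl41 with 2061, Mrpl49 with 1985 and Mrpl36 with 1948. Mrpl27 is known to reach towards the site where peptide bonds are formed. Of these 8 genes, Mrpl54, Mrpl41 and Mrpl49 are mitochondria-specific and the others are bacterial-type. Mrpl20, Mrpl28 and Mrpl49 stayed among the 18 highest members under all 3 lengths. Mrpl51, a mitochondria-specific protein, had 9748 per kb of coding sequence and ranked next after Mrps21 there, but had 1092 per kb of its longest transcript and ranked 27 of 75.

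The lowest of the large subunit per kb of the longest transcript were Mrpl19 with 152, Mrpl47 with 191, Mrpl35 with 217, Mrpl1 with 248, Mrpl17 with 255, Mrps30 with 290, Mrpl37 with 325 and Mrpl32 with 336. Mrpl1 is the protein of the mobile stalk past which transfer RNA leaves the ribosome. Under all 3 lengths Mrpl1, Mrpl47 and Mrps30 were among the 18 lowest members, as were Mrps22, Mrps15, Mrps2, Mrps34, Mrps18b and Mrps27 of the small subunit. Mrpl17 was not, with 3525 per kb of coding sequence.

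The 3 genes named Mrps18 encode related proteins that occupy different places, Mrps18a in the large and both others in the small subunit. Their levels were far apart. Mrps18a had 4076 mean normalized counts per kb of coding sequence, Mrps18c had 3087 and Mrps18b had 275. Per kb of the longest transcript the values were 1080, 1615 and 194, so that Mrps18b was lowest under each length while the order of Mrps18a and Mrps18c turned. Mrps36 had 794 per kb of the longest transcript and 1820 per kb of coding sequence.

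The subunits did not differ under every length. Per kb of the longest transcript the median log2 level of the large subunit was 0.86 above that of the small subunit. The difference was 0.014 per kb of the median transcript and 0.034 per kb of coding sequence. The spread within the small subunit was wider, with an SD of 1.60 on the log2 scale per kb of coding sequence against 1.03 in the large subunit, 1.25 in all members and 2.72 in the 15555 genes. Bacterial-type members of both subunits together lay above mitochondria-specific members by a median log2 difference of 0.64 per kb of the longest transcript and 0.19 per kb of coding sequence, but the direction was not the same in both subunits. In the large subunit the 30 bacterial-type members had the lower median, 845 against 959 in the 18 mitochondria-specific members per kb of the longest transcript and 2317 against 2964 per kb of coding sequence, although 1825 against 1490 per kb of the median transcript. In the small subunit the 16 bacterial-type members had the higher median, 927 against 272 in the 10 mitochondria-specific members per kb of the longest transcript, 2265 against 630 per kb of the median transcript and 3062 against 1098 per kb of coding sequence. With 4 mitochondria-specific proteins of the small subunit that carry other symbols added, the median of that class was 442, 2127 and 1504 under the 3 lengths in the same order. Genes are not replicates, so these differences are descriptions and carry no test.

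Other proteins of the mitochondrial ribosome carry symbols outside the rule, and 7 of them passed the minimum. Per kb of coding sequence Chchd1 had 7380, Ict1 had 5623, Aurkaip1 had 4981, Mrp63 had 3857, Dap3 had 1882, Ptcd3 had 1093 and Gadd45gip1 had 1012. Dap3 is a GTP-binding protein of the small subunit, and Ict1 is a release factor that is built into the large subunit. All 7 values fell inside the range of the members, from 269 to 15326.

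Genes that serve the same ribosome were lower per kb. The factors that assemble it or modify and process its RNA had a median of 607 per kb of coding sequence in the 26 of 27 genes with a coding length, and the 16 factors of mitochondrial translation had 683. The 8 genes of mitochondrial transcription and its nuclear control had 581. Against these medians that of the members was between 3.87 and 4.55 times as high, and between 2.17 and 3.42 times as high per kb of the longest transcript. By count the gap was smaller, with medians of 772, 864 and 679 mean normalized counts in the 3 lists against 1399 in the members. Their median coding lengths were 1114.5, 1228.5 and 1168.5 bases against 588 in the members. The gap per kb thus reflects the length as well as the count, and the share of each was not tested. In the assembly list Ngrn with 1563, Rbfa with 1008 and Mpv17l2 with 788 per kb of the longest transcript were the highest, and Trmt61b with 105, Tfb1m with 77.0 and Ybey with 53.8 the lowest. Among the translation factors the elongation factor Tufm had 1152, its exchange factor Tsfm had 705 and Lrpprc, which stabilizes mitochondrial messages, had 697, while Mtrf1l with 166, the formyltransferase Mtfmt with 157 and the initiation factor Mtif3 with 122 were lowest on this scale. Mtif3 had 726 per kb of coding sequence, above the median of its list. Of the transcription genes Gabpa with 595, Tfam with 529 and Nrf1 with 340 were highest. Lowest were the termination factor Mterf with 142, BC030499 (Tefm, an elongation factor) with 139 and the RNA polymerase Polrmt with 88.1.

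Cytosolic ribosomal proteins and the respiratory chain were higher. The 84 cytosolic ribosomal protein genes that passed the minimum held 1.97% of all counts, and the 83 with a coding length had a median of 11686 per kb of coding sequence, 4.42 times that of the members. The 79 nuclear genes of the respiratory chain and ATP synthase held 1.59%, and the 78 with a coding length had a median of 11319, 4.28 times that of the members. Per kb of the longest transcript these ratios were 6.39 and 5.69. The 13 protein-coding genes of the mitochondrial genome had a median of 19376 per kb of coding sequence. The RNAs of the mitochondrial ribosome, mt-Rnr1 and mt-Rnr2, had 448 and 2671 mean normalized counts in libraries from which ribosomal RNA had been removed.

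**Figure D2:**
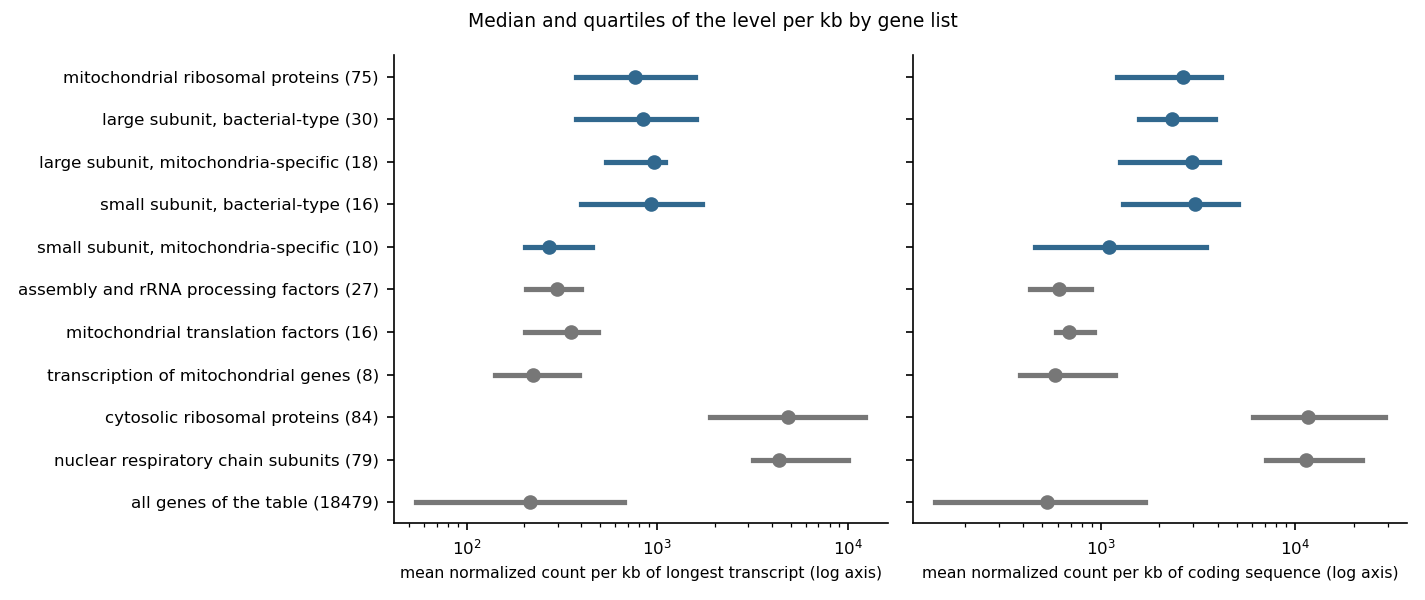
Points are medians and bars run between the quartiles of the level of each gene list, in mean normalized counts per kb of the longest transcript (left) and of coding sequence (right) on log axes, with the number of genes that passed the minimum in brackets, of which those without a length are left out. The members (blue, 762 and 2643) lie above their assembly, translation and transcription factors and below cytosolic ribosomal proteins and respiratory chain subunits.

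Several members have processed pseudogenes, copies of their messenger RNA inserted elsewhere in the genome, and 4 rows of the table carry such symbols. Where a copy is nearly identical, reads can be assigned to either gene. The coding sequence of 1 Mrpl23 transcript (438 bases, where the longest coding sequence of the gene has 516; chr7:142532686-142540747, plus strand) matched Mrpl23-ps1 (chr2:74591330-74591909, minus strand) without a mismatch. The first 90 coding bases, shown because they are the same in both genes, read as follows.
Mrpl23 and Mrpl23-ps1: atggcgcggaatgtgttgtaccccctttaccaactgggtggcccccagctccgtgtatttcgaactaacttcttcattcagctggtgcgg
Mrpl23 had 1423 mean normalized counts (1392 to 1453) and the pseudogene 1657 (1624 to 1690). The values of both genes are therefore uncertain, and 53.8% of their joint count stood under the pseudogene.

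Mrps36 (chr13:100735955-100744659, minus strand) has 2 copies in the table. Over its 306 coding bases Mrps36-ps1 on chromosome 17 had 2 mismatches and Mrps36-ps2 on chromosome 7 had 3. The first 90 coding bases of the 3 genes are given to show how little separates them, with capitals at the bases that are not the same in all 3.
Mrps36: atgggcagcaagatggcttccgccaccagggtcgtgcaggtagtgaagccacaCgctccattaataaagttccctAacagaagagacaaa
Mrps36-ps1: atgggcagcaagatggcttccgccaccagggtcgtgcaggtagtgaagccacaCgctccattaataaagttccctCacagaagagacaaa
Mrps36-ps2: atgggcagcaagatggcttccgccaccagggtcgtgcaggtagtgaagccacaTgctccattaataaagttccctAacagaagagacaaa
Mrps36 had 557 mean normalized counts (538 to 576), Mrps36-ps1 had 612 (593 to 632) and Mrps36-ps2 had 179 (168 to 190). The count of the gene was thus below that of its closest copy.

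Mrpl48 (chr7:100545751-100608301, minus strand) and Mrpl48-ps on chromosome 4 differed at 12 of 633 aligned coding bases, 2 of them among the first 90, in capitals here.
Mrpl48: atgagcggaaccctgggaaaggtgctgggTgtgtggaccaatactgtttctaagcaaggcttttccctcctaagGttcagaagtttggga
Mrpl48-ps: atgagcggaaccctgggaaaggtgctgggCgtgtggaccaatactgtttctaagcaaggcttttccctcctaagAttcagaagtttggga
Mrpl48 had 2532 mean normalized counts and its copy 787, or 23.7% of the joint count.

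**Figure D3:**
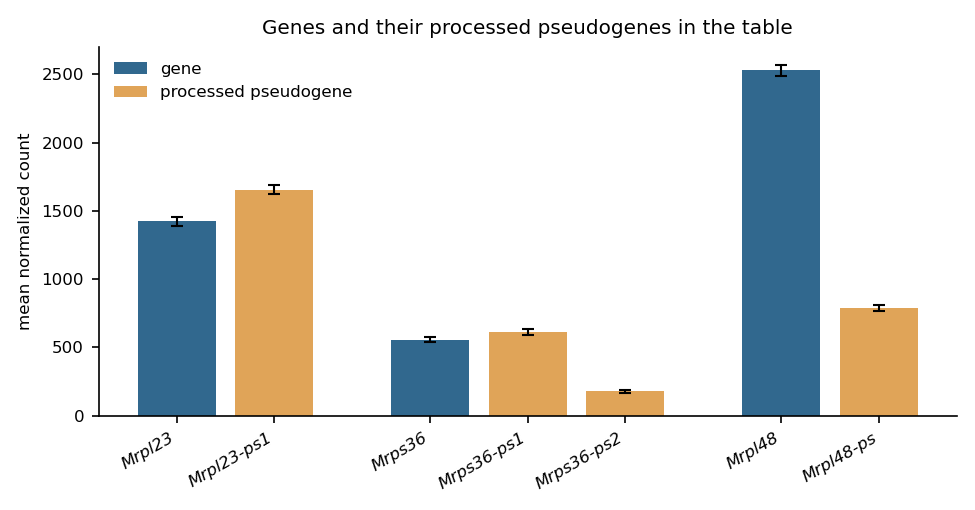
Bars are mean normalized counts of 3 genes (blue) and their processed pseudogenes (orange) with 95% Poisson intervals. Mrpl23-ps1 (1657) and Mrps36-ps1 (612) stand above their genes (1423 and 557), and Mrpl48-ps (787) stands below Mrpl48 (2532).

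Copies under other symbols touched further members. The pseudogene Gm5776 shared 222 words of 50 bases with Mrps33 and had 2356 mean normalized counts against 1977 for the gene, and Gm6304 shared 207 words with Mrpl27 and had 524 against 1739. Across all 75 members the median share of words found in no other gene was 97.0%, and 24 members shared none. In 10 members the share was below 80%, and in Mrps34 and Mrps25 it was below 50%. Mrps34 (chr17:24895116-24897502, plus strand) lies inside Mapk8ip3 on the opposite strand and had 28.2% of words of its own. Mrps25 (chr6:92169525-92184033, minus strand) overlaps the end of Nr2c2 on the opposite strand and had 31.8%. The libraries were made with a kit that keeps the strand, but whether counting used it is not given in the sources used here, so reads of these pairs may not have been told apart. Mrpl53, the gene listed at 0, had 18.02% of words of its own and shared 646 of 788 with the longer coding gene Gm42688 on the same strand.

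Several members start close to a gene that is read in the opposite direction. A head-to-head start was counted where a protein-coding gene on the other strand began at most 1000 bases upstream or overlapped by at most 500 bases. This held for 25 of 75 members, or 33.3% (22.9 to 45.2, exact binomial interval), beside 12.3% of 15516 protein-coding genes that passed the minimum. With an overlap of at most 100 bases the shares were 24.0% and 9.40%. Mrpl46 and Mrps11, of different subunits, start head to head with each other and overlap by 412 bases. Their levels were 1461 and 1567 mean normalized counts per kb of coding sequence. Pairs were not alike in general. By count Mrpl41 with 1599 and Pnpla7 with 1545 lay close. Mrpl10 with 1244 and Lrrc46 with 10.3 lay far apart, as did Mrpl32 with 1011 and Psma2 with 7299. Among the other partners were Fau, a cytosolic ribosomal protein gene, for Mrpl49, and Ndufs6, a subunit of respiratory complex I, for Mrpl36. Psma2, a proteasome subunit, was the partner of Mrpl32, and Sars2, the mitochondrial seryl-tRNA synthetase, that of Mrps12.

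Promoter windows reached from 250 bases before to 50 bases after the start of a gene (RefSeq, GRCm38.p6) and matched 66 of the 75 members. They were searched on both strands for 4 sets of letters known for factors that bind genes of mitochondrial proteins and other housekeeping genes. The letters of nuclear respiratory factor NRF1 (GCGCATGC, or GCATGCGC on the opposite strand) were present in 8 windows, or 12.1%, against 4.75% of 12100 protein-coding genes and 2.80% of all 27025 windows. The letters of ETS factors such as GABPA (CCGGAAG or CTTCCGG) were in 22 windows, or 33.3%, against 15.8% and 9.12%. Those of YY1 (AAGATGGC or GCCATCTT) were in 12, or 18.2%, against 4.05% and 2.88%. Those of SP factors (GGGCGG or CCGCCC) were in 33, or 50.0%, against 60.5% and 35.9%. NRF1 or ETS letters occurred in 26 windows, or 39.4%, against 19.6% of protein-coding genes.

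The NRF1 letters of the 8 members are shown with their surroundings, on the strand of the gene and with the letters searched in capitals, because this factor is the one most closely tied to nuclear genes of mitochondrial proteins.
Mrpl10 (chr11:97041437-97041466, plus strand): cccagctccacGCATGCGCatagcggccct
Mrpl17 (chr7:105811080-105811109, minus strand): gccgagttactGCGCATGCgtcctctgaga
Mrpl22 (chr11:58171620-58171649, plus strand): ggcctcggactGCGCATGCgtatagtcagc
Mrpl32 (chr13:14613105-14613134, minus strand): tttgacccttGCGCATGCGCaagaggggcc
Mrpl33 (chr5:31613928-31613957, plus strand): taccggaacccGCGCATGCcccggaagtag
Mrpl39 (chr16:84735350-84735379, minus strand): aaggagaggcGCGCATGCGCccccgcgtgg
Mrpl9 (chr3:94443298-94443327, plus strand): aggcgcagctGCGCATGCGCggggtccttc
Mrps18b (chr17:35916645-35916674, minus strand): aacggcccgacGCATGCGCactgggagcac
In Mrpl32, Mrpl39 and Mrpl9 both forms overlap in a palindrome. The first letter lay between 11 bases before the RefSeq start, in Mrpl17, and 223 bases before it, in Mrps18b. By the GENCODE gene positions used for lengths here, the letters of Mrpl17, Mrpl32, Mrpl33 and Mrpl39 lie inside the gene. The windows of Mrpl17, Mrpl22, Mrpl33 and Mrps18b also held ETS letters.

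The letters did not mark a single range of levels. The 8 members with NRF1 letters had a median of 1692 mean normalized counts per kb of coding sequence, and the 58 without had 2996. With ETS letters the median was 3308 in 22 members, and without them 1896 in 44. Members with NRF1 letters ranged from Mrps18b with 275 to Mrpl33 with 8294 per kb of coding sequence. A match of letters is a description of the window and not evidence of binding.

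**Figure D4:**
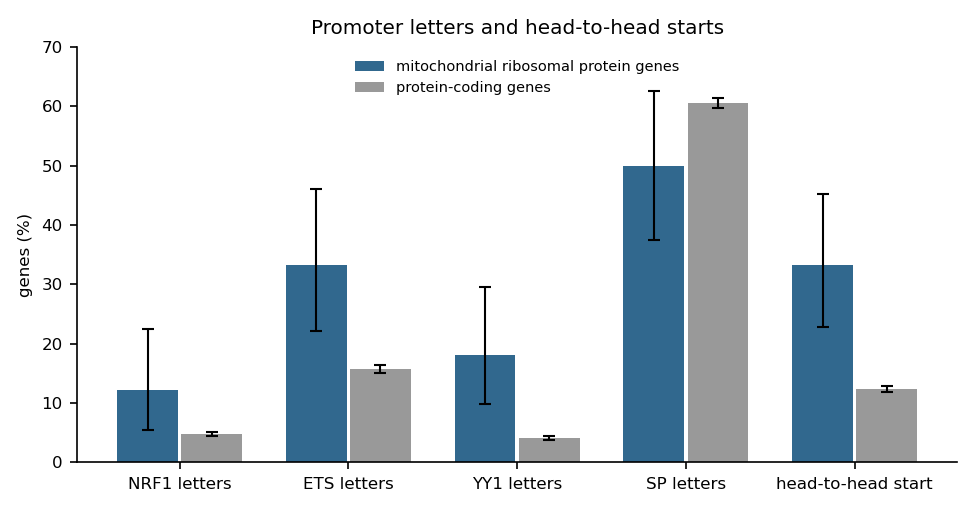
Bars give the percent of members (blue, of 66 promoter windows or 75 genes) and of protein-coding genes (grey) whose promoter window holds each set of letters, or that have a head-to-head start, with exact 95% binomial intervals. NRF1, ETS and YY1 letters and head-to-head starts are more frequent in the members (12.1%, 33.3%, 18.2% and 33.3%) than in protein-coding genes (4.75%, 15.8%, 4.05% and 12.3%), and SP letters are not (50.0% and 60.5%).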

How the data were processed

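The libraries, 3 from young and 3 from aged RPE/choroid, were rRNA-depleted and poly(A)-selected. According to the methods, read pairs were trimmed with BBDuk and mapped with STAR to the Ensembl GRCm38 transcripts, the authors quantified transcripts with Sailfish, scaled them to total counts, and compared the ages with DESeq2. The methods state that Sailfish gave TPM values, a measure already divided by transcript length, which were then turned into normalized counts. Whether the deposited values still carry that division was not tested. If they do, values per kb divide by length again. The deposited mean normalized count is a signal that the authors averaged over all 6 libraries. The remaining columns of the table hold the authors' own comparison of the ages (a log2 fold change with its error, a test statistic, and p-values before and after adjustment). They were not used here, and no test between ages was made. A fit to values per library had been planned and could not be made.

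Means of genes read in few libraries were whole multiples of 6 steps, which gave size factors between 0.959 and 1.06. Reads behind a gene were taken as 6 times its mean, which assumes that the mean rests on read counts. The depth of single libraries is unknown.

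Positions, lengths and coding sequences came from GENCODE M21 (GRCm38), matched by symbol or synonym for 97.1% of the genes at the minimum of 10. The authors' Ensembl release was not used here, so transcript lengths, shared words and ranks may differ under it. A gene's own sequence is the percent of 50-base words of its transcripts found in no other gene on either strand. Promoters came from RefSeq (GRCm38.p6). Named were the 8 highest and 8 lowest members of each subunit per kb of the longest transcript, the Mrps18 genes, Mrps36, members with under 50% own sequence and, of other lists, the 3 highest and 3 lowest. Mrps15, Mrpl51, genes with pseudogenes, and genes named for their neighbours or promoters were chosen after their values were seen, as was the 500-base overlap of head-to-head starts. The members and lists were chosen with earlier results of these data known. Scripts were tested on simulated data. Python 3.11.15, numpy 2.4.6, pandas 2.3.3, scipy 1.17.1 and matplotlib 3.10.9 were used. Alternatives were other lengths, minimums, member sets and motif rules.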

Additional observations from a re-analysis of the deposited data

How the results depend on the processing

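The median level of the members, 762 mean normalized counts per kb of the longest transcript, was 1789 per kb of the median transcript, 2643 per kb of coding sequence and 794 in members with at least 80% own sequence. The log2 difference between large and small subunit, 0.86, became 0.014 and 0.034 under these lengths, 0.68 with at least 80% own sequence, 0.72 with subunits taken by letter and 0.66 with the proteins under other symbols added. The difference between bacterial-type and mitochondria-specific members, 0.64, became 0.47, 0.19 and 0.46 under the first 3 of these alternatives. With 1 mismatch allowed, NRF1 or ETS letters were in 92.4% of the members' windows and 80.2% of those of protein-coding genes, against 39.4% and 19.6% with exact letters. Counting 1 promoter per shared start region gave 40.0%. Minimums of 1 or 100 mean normalized counts left the 75 members as they were, and no minimum gave 76. Neither difference changed sign under the alternatives listed. Within the large subunit, bacterial-type members were below mitochondria-specific members under 2 of the 3 lengths. No paired analysis was possible because single libraries have no values in the table. For the same reason the planned comparison of young with aged, with edgeR or DESeq2, with and without a filter, a replicate block or each library in turn, was not run. Precision between mice is unknown.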
